A study of Mus musculus with 18 samples.

Results

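The genes described here code for 10 cytokine receptor chains of the mouse spleen: Il4ra, Il21r, Il2rb, Il2rg, Il6ra, Il6st, Csf2ra, Il3ra, Csf2rb and Il1r2. They were found by gene name among the 55385 genes of the deposited tables, all 10 were present, and all 10 passed the filter on low counts that left 18634 genes for testing. None lies in the triplicated interval of chromosome 16. Whole spleens of 18 adult mice were sequenced as poly(A) RNA, 6 animals per genotype with 3 males and 3 females each. Dp16 mice carry an extra copy of that interval, a mouse model of trisomy 21. Dp16_2xIFNRs mice carry the same duplication with the copy number of its interferon receptor genes set back to that of WT, and WT mice are C57BL/6J. Ages were labelled as days post conception, a unit that could not be interpreted for adult animals, with values of 17.1 to 18.0 in Dp16 mice, 17.7 to 18.0 in Dp16_2xIFNRs mice and 17.1 to 18.0 in WT mice. The labels give no treatment.

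Cytokine receptors of this kind have no enzyme of their own. A chain that recognises its ligand pairs with a chain that other receptors share, and Janus kinases bound to the chains then activate STAT factors. The common gamma chain, encoded by Il2rg, serves receptors of lymphocyte growth and differentiation factors. Il6st encodes gp130, the shared chain of the IL-6 family, and Csf2rb encodes the common beta chain used by the receptors of IL-3, IL-5 and GM-CSF on myeloid cells. Il1r2 differs from the others: it encodes a decoy that binds IL-1 and sends no signal.

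Library totals ran from 33998427 to 53021480 counts. The genotype labels were checked on the 4 targeted receptor genes Ifnar1, Ifnar2, Ifngr2 and Il10rb, which were called higher in Dp16 than in WT and lower in Dp16_2xIFNRs than in Dp16 (edgeR log2 fold changes of 0.30 to 0.68 and of -0.59 to -0.46). Between Dp16_2xIFNRs and WT, Ifngr2 was called lower in Dp16_2xIFNRs (-0.27, edgeR adjusted p = 0.0147). Ifnar1 (-0.17), Ifnar2 (0.09) and Il10rb (-0.07) were not called there. Spleen markers were present throughout, and the summed level of 7 pancreatic acinar markers, a check for neighbouring tissue, was at most 0.91 CPM. Levels in CPM are counts scaled by TMM to a common library total. The 4 libraries WT replicate 4, Dp16 replicates 2 and 3 and Dp16_2xIFNRs replicate 5 stood apart, with over 4% of their counts on Gm42418, a gene model overlapping ribosomal RNA sequence, and the results were repeated without them.

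Relative to WT, most of the lymphocyte receptor genes and both chains of the IL-6 receptor were lower in Dp16 spleens, the decoy receptor gene Il1r2 was higher, and the GM-CSF and IL-3 receptor chains did not pass the test. Il4ra showed the largest decrease, with a log2 fold change of -0.56 ± 0.07 (SE, n = 6 each), and Il1r2 the only called increase, 1.35 ± 0.22. Of the 10 genes, 5 were called lower at an edgeR adjusted p below 0.05 (Il4ra, Il6ra, Il6st, Il2rb and Il21r), where 13.2% of all 18634 genes were, and 1 was called higher, where 16.6% of all genes were. The median log2 fold change of the 10 genes was -0.23, against -0.01 over all genes. Scaling moved these counts: upper quartile scaling and limma-trend on the RPKM values each added Il2rg, for 6 called lower. Over all genes the TMM-scaled edgeR fit called 3091 higher and 2462 lower, upper quartile scaling 2558 and 3333, and limma-trend on RPKM 2220 and 3924. In the RPKM fit the median of all genes was -0.13.

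**Figure D1:**
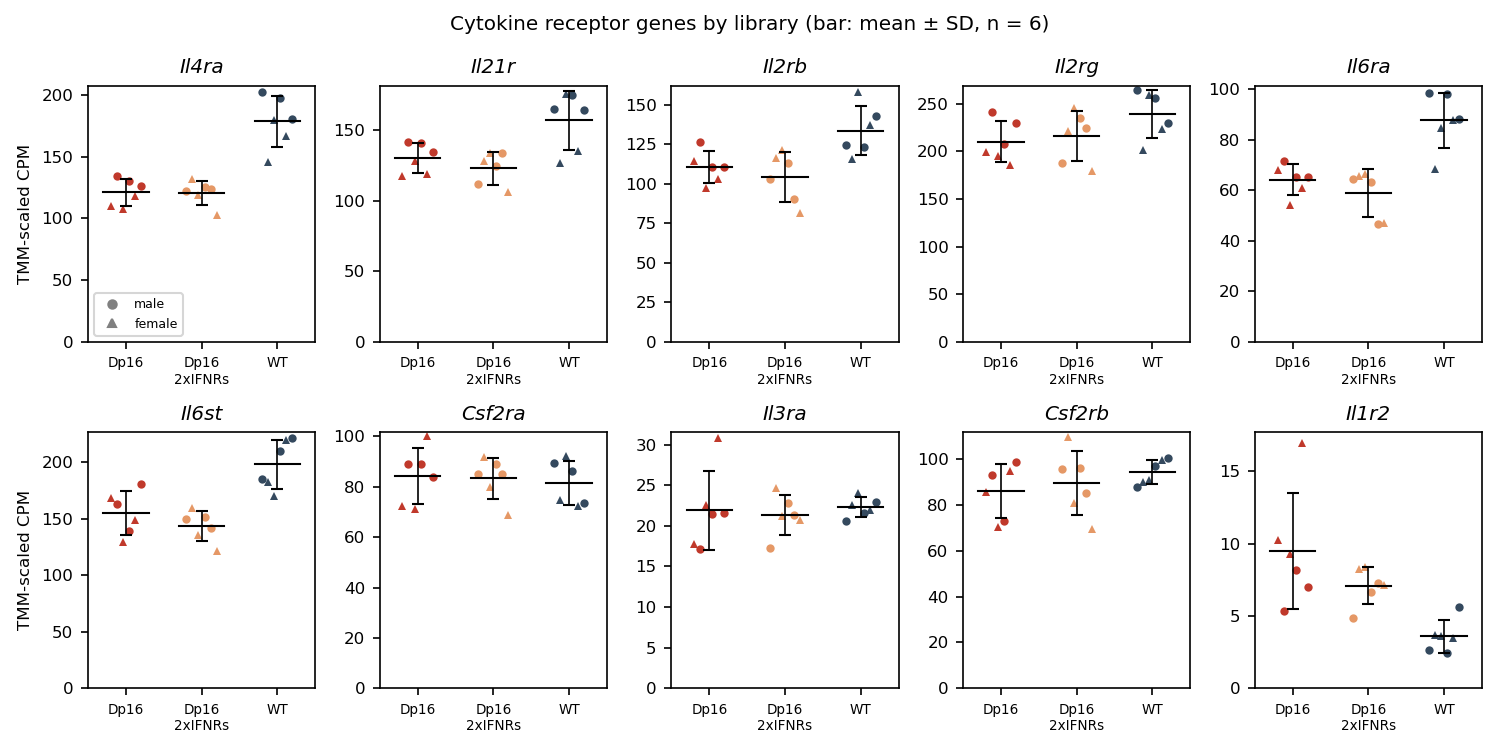
TMM-scaled CPM (vertical axes, each from 0) of the 10 receptor genes in every library of Dp16, Dp16_2xIFNRs and WT, with circles for males and triangles for females, and bars for the mean ± SD (n = 6). For Il4ra every Dp16 and Dp16_2xIFNRs library lies below every WT library, and for Il1r2 5 of 6 libraries of each of these genotypes lie above every WT library.

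Il4ra encodes the chain that binds IL-4 and that also forms the IL-13 receptor with Il13ra1. It had 108, 122 and 135 CPM (lowest, median and highest of 6 libraries) in Dp16, 103, 123 and 132 CPM in Dp16_2xIFNRs, and 146, 180.2 and 202 CPM in WT. Neither Dp16 genotype overlapped WT, and Il4ra was the only one of the 10 genes without overlap between Dp16 and WT (4.34% of all genes were lower without overlap); none of the 10 was higher without overlap, where 8.48% of all genes were. The level was 32.1% lower in Dp16 (adjusted p = 1.69e-05) and 32.2% lower in Dp16_2xIFNRs (adjusted p = 1.73e-05). In order of p among all genes tested it was number 93 in Dp16 and number 86 in Dp16_2xIFNRs.

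Il21r encodes the IL-21 binding chain, which signals with the common gamma chain in B cells, T cells and NK cells. Il21r had 117, 131 and 141 CPM in Dp16, 106, 126 and 134 CPM in Dp16_2xIFNRs, and 127, 165 and 176 CPM in WT. The ranges overlapped because WT replicates 2 and 5, both females, were at 127 and 135 CPM. The log2 fold change was -0.27 ± 0.08 in Dp16 (adjusted p = 0.0150) and -0.35 ± 0.08 in Dp16_2xIFNRs (adjusted p = 0.00243). The Dp16 call was lost without WT replicate 3, at -0.22 (adjusted p = 0.0515), and without the 4 Gm42418-rich libraries, at -0.26 (adjusted p = 0.0693).

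Il2rb encodes the beta chain of the IL-2 and IL-15 receptors, carried by NK cells and activated T cells. Its lowest, median and highest levels were 97.5, 111 and 126 CPM in Dp16, 81.6, 108 and 121 CPM in Dp16_2xIFNRs, and 116, 131 and 158 CPM in WT. In Dp16, 5 of 6 libraries lay below every WT library, and in Dp16_2xIFNRs 4 of 6 did. The log2 fold change was -0.28 ± 0.10 in Dp16 (adjusted p = 0.0388) and -0.36 ± 0.10 in Dp16_2xIFNRs (adjusted p = 0.00778). The Dp16 call sat close to the threshold: it was lost without WT replicate 3 (adjusted p = 0.111), 5 (0.0706) or 6 (0.0808), and without Dp16 replicate 1 (0.0502), 3 (0.0960), 4 (0.0605), 5 (0.0802) or 6 (0.0638), with log2 fold changes between -0.29 and -0.22. It was also lost without the Gm42418-rich libraries (-0.29, adjusted p = 0.0670) and with the library index of the labels as a term (-0.26, adjusted p = 0.0614).

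Il2rg, the common gamma chain gene on chromosome X, had the highest level per length of the 10 genes. It had 185, 203 and 241 CPM in Dp16, 179.8, 223 and 246 CPM in Dp16_2xIFNRs, and 202, 243 and 264 CPM in WT, with wide overlap. Its log2 fold change of -0.19 ± 0.09 in Dp16 (adjusted p = 0.1004) and -0.15 ± 0.09 in Dp16_2xIFNRs (adjusted p = 0.210) did not pass the threshold with TMM scaling. Upper quartile scaling took Il2rg past it in Dp16 (-0.25, adjusted p = 0.0338), as did the limma fit to RPKM values (-0.30, adjusted p = 0.0122); the call was made in Dp16_2xIFNRs in the RPKM fit alone (-0.27, adjusted p = 0.0236).

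On GRCm38, Il4ra (chromosome 7, 125552120 to 125579474, plus strand) and Il21r (125603429 to 125633570, plus strand) are neighbours, 24.0 kb apart. The other genes of the group lie on other chromosomes, with Il2rb (chromosome 15, 78479256 to 78495271, minus strand) 125 kb from Csf2rb. The RefSeq promoter table for GRCm38.p6, which holds 250 bases before and 50 after each gene's start, matched 8 of the 10 genes, without Csf2rb and Il2rb. The promoters of the neighbours Il4ra and Il21r, which were both lower, and of Il1r2, the gene that was higher, are shown 5′ to 3′ on the plus strand, at chr7:125552021-125552320, chr7:125603179-125603478 and chr1:40085843-40086142. The RefSeq start of Il1r2 lies inside the GENCODE gene, whose first base is at 40074079 on chromosome 1. Capitals mark TTCNNNGAA, the GAS motif that STAT dimers recognise, found on either strand.
Il4ra: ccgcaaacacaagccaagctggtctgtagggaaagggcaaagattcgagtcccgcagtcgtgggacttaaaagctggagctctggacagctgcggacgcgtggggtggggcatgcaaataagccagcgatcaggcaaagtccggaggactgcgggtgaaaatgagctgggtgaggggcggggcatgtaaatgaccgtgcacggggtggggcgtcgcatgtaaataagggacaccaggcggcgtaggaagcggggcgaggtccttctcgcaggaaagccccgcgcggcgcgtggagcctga
Il21r: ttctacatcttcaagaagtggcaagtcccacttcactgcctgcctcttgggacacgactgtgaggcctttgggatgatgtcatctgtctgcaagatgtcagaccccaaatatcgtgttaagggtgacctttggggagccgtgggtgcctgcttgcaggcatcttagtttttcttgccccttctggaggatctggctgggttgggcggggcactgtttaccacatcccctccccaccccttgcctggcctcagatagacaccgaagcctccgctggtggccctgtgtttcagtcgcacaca
Il1r2: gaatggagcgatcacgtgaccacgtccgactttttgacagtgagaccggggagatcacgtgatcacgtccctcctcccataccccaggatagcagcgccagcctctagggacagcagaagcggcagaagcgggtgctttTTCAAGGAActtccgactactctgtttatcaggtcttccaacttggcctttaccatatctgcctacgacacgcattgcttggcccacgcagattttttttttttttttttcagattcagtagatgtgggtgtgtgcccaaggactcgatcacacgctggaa

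The Il1r2 promoter held the motif once, with its first base at position -111 from the start, and it was the only one of the 8 promoters with a match, where 8.30% of 32851 mouse promoters have one. The form that STAT6 prefers, with 4 bases in place of 3 between TTC and GAA, was in none of the 8 promoters and in 6.95% of all. Further motifs were searched in the same windows on both strands: CCGGAAGT for ETS factors (3.89% of all promoters), AGATAA for GATA factors (11.2%), TGTGGTT for RUNX factors (5.27%), TTGCNNAA for C/EBP factors (10.8%), the E-box CACCTG (20.2%), and the interferon-stimulated response element taken as a pair of TTTC with 2 bases between (3.44%). Of these, the GATA motif occurred in the Il6ra promoter only, as did the E-box, the C/EBP motif in the Il3ra promoter only, and the others in none of the 8. A match in a window is a description of its letters and does not show a bound factor. GC content was 62.0% in the Il4ra promoter, 56.0% in the Il21r promoter and 51.3% in the Il1r2 promoter.

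Il6ra encodes the IL-6 binding chain and Il6st its signalling partner. Il6ra had 54.1, 65.2 and 71.5 CPM in Dp16, 46.4, 63.8 and 66.2 CPM in Dp16_2xIFNRs, and 68.3, 88.0 and 98.3 CPM in WT. Every Dp16_2xIFNRs library was below every WT library, and 5 of 6 Dp16 libraries were, the exception being Dp16 replicate 2. The decrease was 26.7% in Dp16 (log2 fold change -0.45 ± 0.10, adjusted p = 0.00213) and 32.6% in Dp16_2xIFNRs (-0.57 ± 0.10, adjusted p = 0.000285).

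Il6st had 129, 156 and 180.5 CPM in Dp16, 122, 146 and 159 CPM in Dp16_2xIFNRs, and 170.3, 197 and 221 CPM in WT. The Dp16_2xIFNRs libraries again lay below every WT library, and only Dp16 replicate 6 reached into the WT range. The level was 21.9% lower in Dp16 (-0.36 ± 0.09, adjusted p = 0.00363) and 27.7% lower in Dp16_2xIFNRs (-0.47 ± 0.09, adjusted p = 0.000399). Without the 4 Gm42418-rich libraries the Dp16 value was -0.29 (adjusted p = 0.0674), and then only Il4ra and Il6ra of the 10 genes were called lower in Dp16.

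Csf2ra and Il3ra encode the ligand-binding chains for GM-CSF and IL-3, and Csf2rb the chain they share. Csf2ra had 71.1, 86.4 and 100.01 CPM in Dp16, 68.8, 85.2 and 91.8 CPM in Dp16_2xIFNRs, and 72.4, 80.5 and 92.1 CPM in WT. Il3ra had 17.1, 21.5 and 30.8 CPM in Dp16, 17.3, 21.3 and 24.6 CPM in Dp16_2xIFNRs, and 20.6, 22.3 and 24.1 CPM in WT. Csf2rb had 70.4, 89.2 and 98.5 CPM in Dp16, 69.6, 90.4 and 109.5 CPM in Dp16_2xIFNRs, and 87.8, 93.9 and 100.5 CPM in WT. The genotypes overlapped for all 3 genes, and the libraries of both Dp16 genotypes spread more widely than the WT libraries for Il3ra (SD of 4.89 CPM in Dp16, 2.44 CPM in Dp16_2xIFNRs and 1.21 CPM in WT) and Csf2rb (SD of 11.8 CPM in Dp16, 13.9 CPM in Dp16_2xIFNRs and 5.37 CPM in WT). The log2 fold changes in Dp16 were 0.05 for Csf2ra (95% interval -0.13 to 0.23), -0.03 for Il3ra (-0.25 to 0.19) and -0.14 for Csf2rb (-0.33 to 0.06). The Csf2ra value turned to -0.02 with upper quartile scaling, to -0.07 in the RPKM fit, to -0.05 with a number code in the sample descriptions as a block and to -0.03 without Dp16 replicate 5. The Il3ra value ran from -0.33 to 0.05 over the alternatives and was above 0 in 3 of them, those without the Gm42418-rich libraries, without Dp16 replicate 1 and without Dp16 replicate 2. In Dp16_2xIFNRs the values were 0.03, -0.06 and -0.08, and that of Csf2ra was below 0 with upper quartile scaling (-0.03), in the RPKM fit (-0.08) and without WT replicate 6 or Dp16_2xIFNRs replicate 2.

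Csf2rb has a near-identical copy in mice, Csf2rb2, 20031 bases away on chromosome 15, which encodes a beta chain used by the IL-3 receptor alone, and reads could be split between the copies. Csf2rb2 had medians of 39.0 CPM in Dp16, 38.5 CPM in Dp16_2xIFNRs and 42.7 CPM in WT, with log2 fold changes of -0.19 and -0.12 that did not pass the test (adjusted p = 0.288 and 0.524). With the counts of both copies summed, Csf2rb also did not pass.

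Il1r2 rose in both Dp16 genotypes. It had 5.38, 8.71 and 17.0 CPM in Dp16, 4.90, 7.21 and 8.38 CPM in Dp16_2xIFNRs, and 2.45, 3.56 and 5.63 CPM in WT. In each Dp16 genotype 5 of 6 libraries lay above every WT library, and the lowest library of each and WT replicate 6 made the ranges overlap. The fold was 2.55 in Dp16 (adjusted p = 0.000121) and 1.95 in Dp16_2xIFNRs (adjusted p = 0.00165). In Dp16 the females, replicates 1, 3 and 5, had 10.3, 9.26 and 17.0 CPM, above the 5.38, 8.15 and 6.99 CPM of the males, replicates 2, 4 and 6. The sexes overlapped in Dp16_2xIFNRs, with 7.14 to 8.38 CPM in females and 4.90 to 7.29 CPM in males. They also overlapped in WT, with 3.47 to 3.68 CPM in females and 2.45 to 5.63 CPM in males. The counts behind these values were low for the group, 99 to 727 reads per library.

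**Figure D2:**
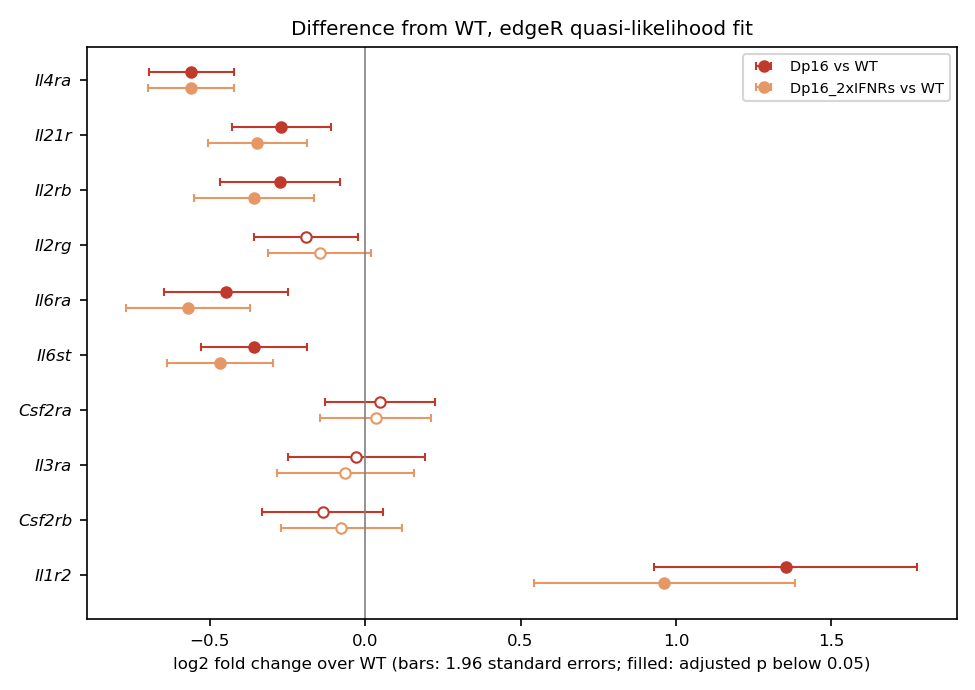
Log2 fold change over WT (horizontal axis) of each receptor gene in Dp16 and in Dp16_2xIFNRs from the edgeR fit, with bars for the 95% interval and filled symbols for an adjusted p below 0.05. In both genotypes 5 genes lie to the left of 0 and Il1r2 to the right with filled symbols, and Il2rg, Csf2ra, Il3ra and Csf2rb have open ones.

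Against WT, Dp16_2xIFNRs spleens gave 5 of the 10 genes lower (14.2% of all genes) and 1 higher (17.3% of all genes), and Il4ra, Il6ra and Il6st were lower without overlap, as were 5.75% of all genes. None of the 10 was higher without overlap there, where 6.83% of all genes were. The names are those called in Dp16. Both comparisons use the same WT libraries, so their likeness is not independent evidence. The direct comparison of Dp16_2xIFNRs with Dp16 asks whether the interferon receptor copy number bears on these genes. None of the 10 was called by edgeR in either direction and none had an unadjusted p below 0.05, where 438 of all genes did. DESeq2 and both limma fits called none either. Over all genes that comparison called 0 higher (0%) and 4 lower (0.0215%).

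The intervals show what that comparison could resolve. The difference between Dp16_2xIFNRs and Dp16 was -0.0021 for Il4ra on the log2 scale (95% interval -0.14 to 0.14), -0.12 for Il6ra (-0.32 to 0.08) and -0.11 for Il6st (-0.28 to 0.06). Il2rb was at -0.08 (-0.28 to 0.11), Il21r at -0.08 (-0.24 to 0.08) and Il2rg at 0.04 (-0.12 to 0.21). The widest interval belonged to Il1r2, at -0.39 (-0.80 to 0.02). Csf2ra was at -0.01 (-0.19 to 0.16), Csf2rb at 0.06 (-0.14 to 0.25) and Il3ra at -0.04 (-0.26 to 0.19). The intervals of the 9 genes other than Il1r2 thus reached no lower than -0.32 (Il6ra) and no higher than 0.25 (Csf2rb). The ranges of the 10 genes overlapped in all cases, where 0.0537% of all genes were higher and 0.0322% lower without overlap.

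The difference from WT was compared between the sexes by an interaction term in edgeR, with 3 animals per sex and genotype. None of 20 tests on the 10 genes was called, nor any gene of the whole table, where 439 (Dp16) and 745 (Dp16_2xIFNRs) had an unadjusted p below 0.05. The smallest p among the 20 was 0.0577 in this edgeR fit, for Il1r2 in Dp16, with log2 fold changes of 1.76 in females and 0.94 in males. For Il4ra the Dp16 values were -0.55 in females and -0.57 in males, and for Il6st -0.36 in females and -0.35 in males.

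Levels between the genes are compared in RPKM, the deposited reads scaled by gene length and library total. In WT the order of mean RPKM was Il2rg (151 ± 16.7, SD, n = 6), Il21r (65.2 ± 8.90), Csf2ra (46.2 ± 4.96), Il4ra (35.9 ± 4.497), Il2rb (32.9 ± 4.14), Il6st (19.1 ± 2.34), Csf2rb (19.0 ± 1.34), Il6ra (10.7 ± 1.47), Il3ra (9.20 ± 0.49) and Il1r2 (2.67 ± 0.86). Neighbours in that order overlapped for Il21r, Csf2ra, Il4ra and Il2rb, for Il6st and Csf2rb, and for Il6ra and Il3ra, while Il2rg and Il1r2 stood apart at the ends. In Dp16, with the same ends, Il4ra (22.5 ± 2.11) came after Il2rb (25.1 ± 2.49), and Il6st (13.7 ± 1.97) after Csf2rb (16.0 ± 2.54), each pair overlapping, and Il6ra after Il3ra. Il1r2, at 6.56 ± 2.95 RPKM in Dp16 and 4.87 ± 0.86 RPKM in Dp16_2xIFNRs, then overlapped Il6ra, which was at 7.23 ± 0.79 and 6.65 ± 1.22 RPKM.

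A receptor needs both of its chains, so the ratio of ligand-binding to shared chain was taken within each library, where library scaling cancels. These are ratios of RNA in whole spleen, where the chains may come from different cells, and the part of cell types was not tested. The ratio of Il4ra to Il2rg had a median of 0.177 in Dp16 (0.174 to 0.203), 0.179 in Dp16_2xIFNRs (0.154 to 0.206) and 0.240 in WT (0.221 to 0.249). All libraries of both Dp16 genotypes lay below all WT libraries. The difference in log2 ratio was -0.37 in Dp16 and -0.41 in Dp16_2xIFNRs, each with p = 0.00216 by a two-sided exact permutation test, the smallest that the exchanges of 12 libraries can give, and adjusted p = 0.0130 over the 18 ratio tests. The ratio of Il21r to Il2rg passed in Dp16_2xIFNRs, at 0.385 (0.349 to 0.393) against 0.429 (0.399 to 0.470) in WT (log2 difference -0.19, exact permutation adjusted p = 0.0130). In Dp16 it did not, at 0.405 (log2 difference -0.08, exact permutation adjusted p = 0.429).

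None of the other ratios passed. That of Il2rb to Il2rg was 0.206 in Dp16, 0.190 in Dp16_2xIFNRs and 0.230 in WT (medians), and the Dp16_2xIFNRs difference of -0.21 had an exact permutation adjusted p of 0.218. Il6ra and Il6st, which were both lower, kept a median ratio of 0.524 in Dp16 and 0.527 in Dp16_2xIFNRs, against 0.549 in WT (log2 differences of -0.09 and -0.12, exact permutation adjusted p = 0.601 and 0.542). Csf2ra to Csf2rb was 2.76 in Dp16, 2.69 in Dp16_2xIFNRs and 2.42 in WT. Il3ra to Csf2rb was 0.520 in Dp16, with a range of 0.377 to 0.666, and 0.5001 in Dp16_2xIFNRs, against 0.474 in WT with a narrower range of 0.451 to 0.543.

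**Figure D3:**
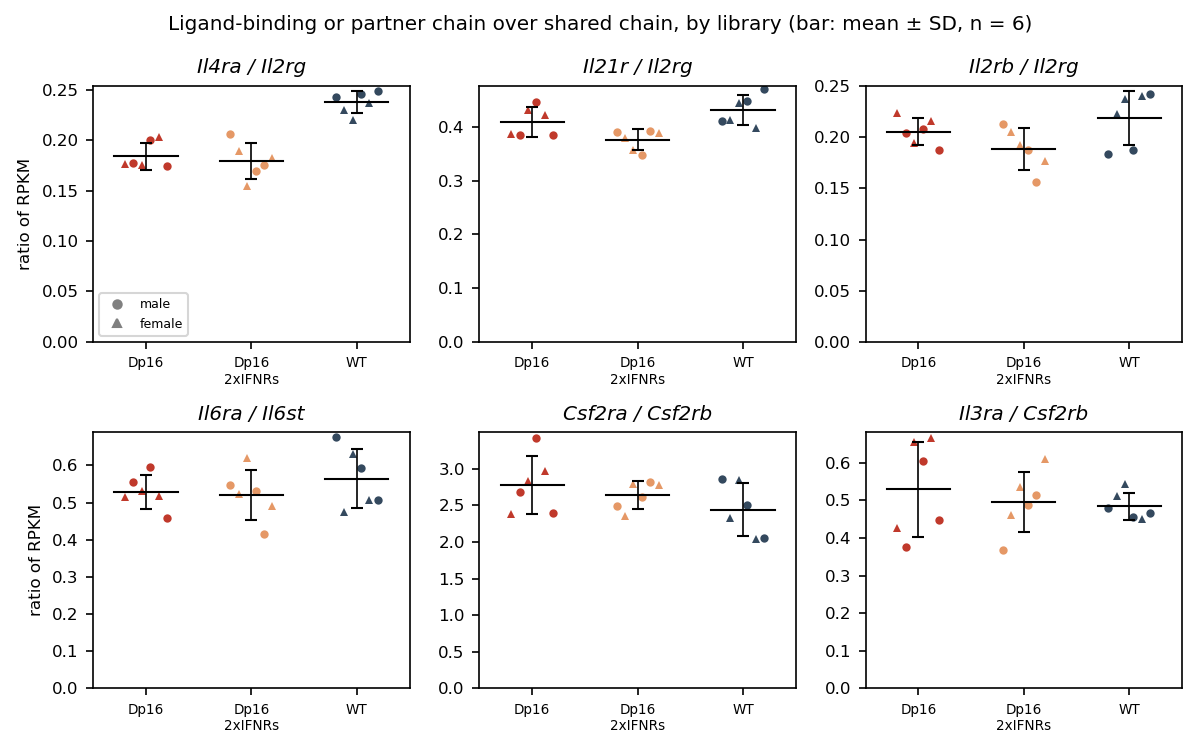
Ratio of RPKM values of a ligand-binding or partner chain to the shared chain (vertical axes, from 0) within each library of Dp16, Dp16_2xIFNRs and WT, with circles for males, triangles for females and bars for the mean ± SD (n = 6). Only the Il4ra to Il2rg ratio separates both Dp16 genotypes from WT without overlap.

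In whole spleen, fewer cells of a type and less RNA per cell cannot be told apart, and the markers of several cell types are set beside these receptors. Of 12 B cell markers, 11 were lower in Dp16 and 11 in Dp16_2xIFNRs, and their summed level was 3022 to 3641 CPM in Dp16, 3068 to 3819 CPM in Dp16_2xIFNRs and 4196 to 6102 CPM in WT. Their median log2 fold change was -0.63 in Dp16 and -0.58 in Dp16_2xIFNRs, beside -0.56 for Il4ra in each. Of 7 endothelial markers 5 were lower in both genotypes, with sums of 385 to 422 CPM in Dp16, 393 to 434 CPM in Dp16_2xIFNRs and 474 to 633 CPM in WT, beside the lower Il6st. Of 8 stromal markers 4 were lower in Dp16 and 3 in Dp16_2xIFNRs, with overlapping sums of 422 to 717 CPM in Dp16, 434 to 607 CPM in Dp16_2xIFNRs and 595 to 866 CPM in WT. Without the Gm42418-rich libraries, where the Dp16 call of Il6st was lost, 1 stromal marker was lower in Dp16, and 2 were with only the libraries of Dp16 and WT fitted. Of 12 T cell markers 3 were lower in Dp16 and 2 in Dp16_2xIFNRs (sums of 1161 to 1439.7 CPM in Dp16, 1049.8 to 1411 CPM in Dp16_2xIFNRs and 1121 to 1443 CPM in WT), and of 10 NK and cytotoxic markers 3 in each, beside the lower Il2rb, Il21r and Il6ra. Over all genes 13.2% were lower in Dp16 and 14.2% in Dp16_2xIFNRs. The T cell sums overlapped, and the median log2 fold change of these markers was -0.10 in Dp16 and -0.12 in Dp16_2xIFNRs. The NK count in Dp16 was 5 without Dp16 replicate 2, with upper quartile scaling, in DESeq2 and in limma voom, 6 in the RPKM fit, and 0 with the description code as a block, where it was 0 in Dp16_2xIFNRs too. That block left 1 T cell marker and 3 endothelial markers lower in Dp16, and the RPKM fit gave 5 T cell markers lower in each genotype. The NK sums were 257 to 338 CPM in Dp16, 238 to 329 CPM in Dp16_2xIFNRs and 304 to 335 CPM in WT. All 12 erythroid markers were higher in both genotypes. Their sums were 19626 to 37563 CPM in Dp16, 18904 to 39143 CPM in Dp16_2xIFNRs and 4929 to 18044 CPM in WT. No marker of these lists was at 0 in any library, and their part in the receptor results was not tested.

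The higher Il1r2 stood beside higher granulocyte markers. All 11 neutrophil granule markers were higher in both genotypes, with sums of 3271 to 10826 CPM in Dp16, 3686 to 6208 CPM in Dp16_2xIFNRs and 429.8 to 1950.4 CPM in WT. Dp16 replicate 5 had the highest sum and the highest Il1r2 level, and Dp16 replicate 2 the lowest of each in Dp16. In Dp16_2xIFNRs replicate 3 was highest and replicate 1 lowest in both. In WT the order differed: replicate 6 had the highest Il1r2 level, 5.63 CPM, with a granule sum of 517 CPM, and replicate 5 the highest sum, 1950.4 CPM, with Il1r2 at 3.47 CPM. Dp16 replicates 5 and 2 also had the highest and lowest Dp16 sums of basophil and mast cell markers (198 and 66.4 CPM). The same held for eosinophil markers (239 and 62.0 CPM) and 8 megakaryocyte and platelet markers (1048 and 327 CPM). Those 8 were all called higher in both genotypes. In Dp16_2xIFNRs the extremes of these other sums were not in the libraries where Il1r2 was highest and lowest. Basophil and mast cell sums were highest in replicate 5 and lowest in replicate 4. Eosinophil sums and megakaryocyte and platelet sums were highest in replicate 2 and lowest in replicate 5. Granule sums also split by sex. Females had 6408 to 10826 CPM in Dp16, and males 3271 to 4641 CPM. In Dp16_2xIFNRs females had 5718 to 6208 CPM and males 3686 to 4244 CPM. WT showed the same split, with 859 to 1950.4 CPM in females and 429.8 to 641 CPM in males. Of 7 markers of mature neutrophils 5 were higher in both genotypes, with sums of 146 to 364 CPM in Dp16, 188 to 284 CPM in Dp16_2xIFNRs and 119 to 145 CPM in WT. The other members of that list, Csf3r and Cxcr2, were at -0.01 and -0.19 in Dp16, not called. None of the granulocyte markers was at 0 in any library, and their part in the Il1r2 result was not tested. Monocyte markers, beside the chains for GM-CSF and IL-3, had overlapping sums of 570 to 771 CPM in Dp16, 666 to 738 CPM in Dp16_2xIFNRs and 659 to 826 CPM in WT.

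**Figure D4:**
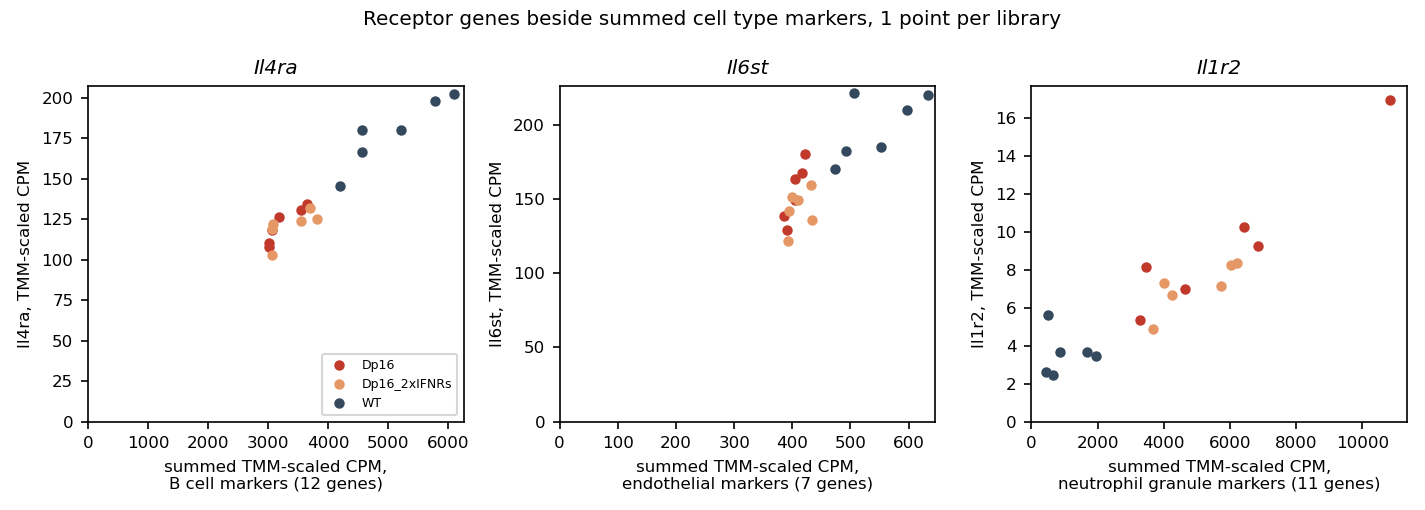
TMM-scaled CPM of Il4ra, Il6st and Il1r2 (vertical axes) against the summed CPM of 12 B cell, 7 endothelial and 11 neutrophil granule markers (horizontal axes), 1 point per library, coloured by genotype. In the left and middle plots the Dp16 and Dp16_2xIFNRs libraries lie left of all WT libraries, and in the right plot they lie right of all WT libraries.

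Genes whose residual pattern was most like that of each receptor were found after removal of genotype means and the sex difference, over 18 libraries and 9992 genes. These are the highest of many correlations and a description, with shared libraries behind all points. Not among the 9992 were the receptor genes themselves, predicted genes, genes of the mitochondrial genome, and immunoglobulin and T cell receptor segments. For Il2rb the closest gene was Cd4 (Pearson r = 0.94, Spearman rho = 0.94, r = 0.93 without the 2 farthest libraries), followed by Stat3 and Sh2d2a. For Il6st it was Mmrn2 (r = 0.93, rho = 0.92, 0.92 without 2), followed by Tns3 and Antxr1, and for Il6ra Satb1 (r = 0.92, rho = 0.92, 0.88 without 2), followed by Mrtfa and Ago1. For Il4ra it was B4galnt1 (r = 0.91, rho = 0.93, 0.88 without 2), with Dlgap4 and Nfkb2, and for Il2rg Slc9a3r1 (r = 0.90, rho = 0.93, 0.89 without 2), with Bin1 and Lbh. The closest genes to Il21r were Ticam1, Blnk and Mob3a, with r of 0.82 to 0.85. Cd4, the closest to Il2rb, had a log2 fold change of 0.21 in Dp16 (edgeR adjusted p = 0.137). It was not called and was opposite in sign to Il2rb.

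The myeloid chains had other neighbours. For Csf2rb the closest were Slc29a3 (r = 0.90, rho = 0.90, 0.85 without 2), Nfe2l1 and its copy Csf2rb2 (r = 0.87), for Csf2ra Zc3h12a (r = 0.88, rho = 0.87, 0.84 without 2), Arhgap25 and Tlr1, and for Il3ra Kctd1 (r = 0.88, rho = 0.84, 0.82 without 2), Cd300lf and Zfp870. Il1r2 was closest to Mindy3 (r = 0.85, rho = 0.89), a value that fell to 0.72 without the 2 farthest libraries, then to Nr2f6 and Rap1b. Among the 10 genes themselves the highest residual correlations were between Il6st and Csf2rb (r = 0.84, rho = 0.82), between Il2rg and Il21r (r = 0.81, rho = 0.77) and between Il6ra and Il2rb (r = 0.73, rho = 0.59). The neighbours Il4ra and Il21r had r = 0.73 (rho = 0.70), and Il6ra with its partner Il6st 0.47 (rho = 0.48).

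Other chains of the same receptor families were given by lists. Of 7 further chains of the common gamma and IL-4 family (Il2ra, Il7r, Il9r, Il15ra, Il13ra1, Il13ra2 and Crlf2), 2 were called higher in Dp16 and none lower (1 lower without WT replicate 2). Il13ra2, a decoy for IL-13, had a median of 1.91 CPM in Dp16 and 1.12 CPM in WT (log2 fold change 0.85 ± 0.24, adjusted p = 0.00992) and was also higher in Dp16_2xIFNRs (1.07 ± 0.24, adjusted p = 0.00184). Il9r, the IL-9 receptor chain, was at 0.31 (adjusted p = 0.0304), a call lost without WT replicate 1 (adjusted p = 0.0770), 2 (0.0762) or 6 (0.0656), without Dp16 replicate 2 (0.0713) or 5 (0.0873), with upper quartile scaling (0.0886) and in the RPKM fit (0.210). Crlf2, the TSLP receptor chain, was at -0.15 (adjusted p = 0.205).

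Of the other beta and IL-6 family chains, those called were lower. Il5ra, the IL-5 binding chain, had 4.31, 5.18 and 8.19 CPM in Dp16, 3.20, 5.81 and 6.45 CPM in Dp16_2xIFNRs, and 8.72, 10.2 and 18.6 CPM in WT. It was lower without overlap in both genotypes (log2 fold changes of -1.15 ± 0.19 in Dp16, adjusted p = 0.000158, and -1.15 ± 0.19 in Dp16_2xIFNRs, adjusted p = 0.000144). Of 4 eosinophil markers, cells known for this receptor, 3 were higher in Dp16 and 2 in Dp16_2xIFNRs, with overlapping sums of 62.0 to 239 CPM in Dp16, 85.9 to 166 CPM in Dp16_2xIFNRs and 45.2 to 89.5 CPM in WT, and their part was not tested. With the description code as a block none of the 4 was called higher in Dp16 and 1 in Dp16_2xIFNRs, while Il5ra was still called lower in both. Of the 12 B cell markers, 11 were lower in each Dp16 genotype, the direction of Il5ra, and their part was not tested either. Of 6 chains that signal with gp130 or are built like it (Il11ra1, Lifr, Osmr, Cntfr, Il27ra and Il31ra), 3 were lower in Dp16, 2 in Dp16_2xIFNRs and none higher. Lifr, the LIF receptor chain, was at -0.45 ± 0.09 in Dp16 (adjusted p = 0.00108) and -0.44 ± 0.09 in Dp16_2xIFNRs (adjusted p = 0.00102). Il27ra was at -0.35 in Dp16 (adjusted p = 0.00557), and Cntfr at -0.81 (adjusted p = 0.0151), lost without WT replicate 4 (adjusted p = 0.0561). In Dp16_2xIFNRs 1 was lower, in place of 2, without WT replicate 1, 3, 4 or 5 or Dp16_2xIFNRs replicate 4, 5 or 6. None of 3 IL-12 and IL-23 receptor chains (Il12rb1, Il12rb2 and Il23r) was called in either genotype.

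Of 7 other receptors of the IL-1 family, 1 was higher and 2 were lower in Dp16, and 1 was higher and 3 lower in Dp16_2xIFNRs (1 lower without WT replicate 5 or Dp16_2xIFNRs replicate 6). Il1rl1, the IL-33 receptor of mast cells and basophils among others, had 18.7, 23.6 and 27.5 CPM in Dp16, 14.2, 19.8 and 28.3 CPM in Dp16_2xIFNRs, and 4.58, 8.60 and 14.9 CPM in WT. Its log2 fold change was 1.44 ± 0.24 in Dp16 (adjusted p = 0.000246) and 1.30 ± 0.24 in Dp16_2xIFNRs (adjusted p = 0.000514). Of 7 basophil and mast cell markers 6 were higher in both genotypes, with sums of 66.4 to 198 CPM in Dp16, 78.0 to 157 CPM in Dp16_2xIFNRs and 27.8 to 49.7 CPM in WT, and their part in the Il1rl1 result was not tested. Il1r1, the signalling receptor for IL-1, was at -0.23 in Dp16 (adjusted p = 0.185) and was called lower in Dp16_2xIFNRs, at -0.41 (adjusted p = 0.0188, and 0.0529 without WT replicate 5), beside the higher decoy gene Il1r2. The difference between the genes was not tested. Sigirr, an inhibitory member, was at -0.41 in Dp16 (adjusted p = 0.00904), and Il18r1 at -0.42 (adjusted p = 0.0362), a call lost without WT replicates 1 to 5 in turn (adjusted p = 0.0536 to 0.0682) and without Dp16 replicate 3 (0.0847), 4 (0.0932) or 6 (0.0767).

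Among 6 growth factor receptors of blood cells, 2 were higher and 2 lower in Dp16. Epor, the erythropoietin receptor, had medians of 78.7 CPM in Dp16, 77.3 CPM in Dp16_2xIFNRs and 30.4 CPM in WT (log2 fold change 1.47 ± 0.29 in Dp16, adjusted p = 0.00143). The 12 erythroid markers were all higher beside it, with a median log2 fold change of 1.73 in Dp16, and their part was not tested. Flt3 was at -0.27 in Dp16 (adjusted p = 0.0246), lost without WT replicate 4 (adjusted p = 0.0751) or 5 (0.0502) and without Dp16 replicate 3 (0.0594) or 6 (0.0819). None of the 6 was called lower in Dp16 without WT replicate 5, Dp16 replicate 3 or the Gm42418-rich libraries, and 1 was without WT replicate 2, 4 or 6 or Dp16 replicate 1 or 6.

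Of 20 ligand genes 14 were tested in all genotypes. Il3 and Il9 had no count in any library, against a floor of 3 counts per library, and Il13, Csf2, Il5 and Il11 were too low to test. Of the 14, 1 was lower in Dp16, 2 were lower in Dp16_2xIFNRs (none without Dp16_2xIFNRs replicate 6), and none was higher in either. Clcf1, a ligand that signals through gp130, was at -0.86 ± 0.17 in Dp16 (adjusted p = 0.000901). Il7 was at -0.44 in Dp16 (adjusted p = 0.0606), and passed the threshold without WT replicate 4 (adjusted p = 0.0466) or Dp16 replicate 4 (0.0314) and in DESeq2 (0.0375). In Dp16_2xIFNRs Clcf1 was at -0.54 and Il7 at -0.50 (adjusted p = 0.0199 and 0.03001). The call of Clcf1 there was lost without WT replicate 1 (0.0603) or 3 (0.0593) or Dp16_2xIFNRs replicate 5 (0.0544) or 6 (0.0532), and that of Il7 without WT replicate 5 or 6 or Dp16_2xIFNRs replicate 1, 3, 4 or 6 (adjusted p = 0.0521 to 0.104). Il6 was at 0.44 CPM in Dp16, 0.32 CPM in Dp16_2xIFNRs and 0.14 CPM in WT (medians, with a library at 0 in every genotype), and its log2 fold change of 1.70 ± 0.99 in Dp16 did not pass (adjusted p = 0.219).

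**Figure D5:**
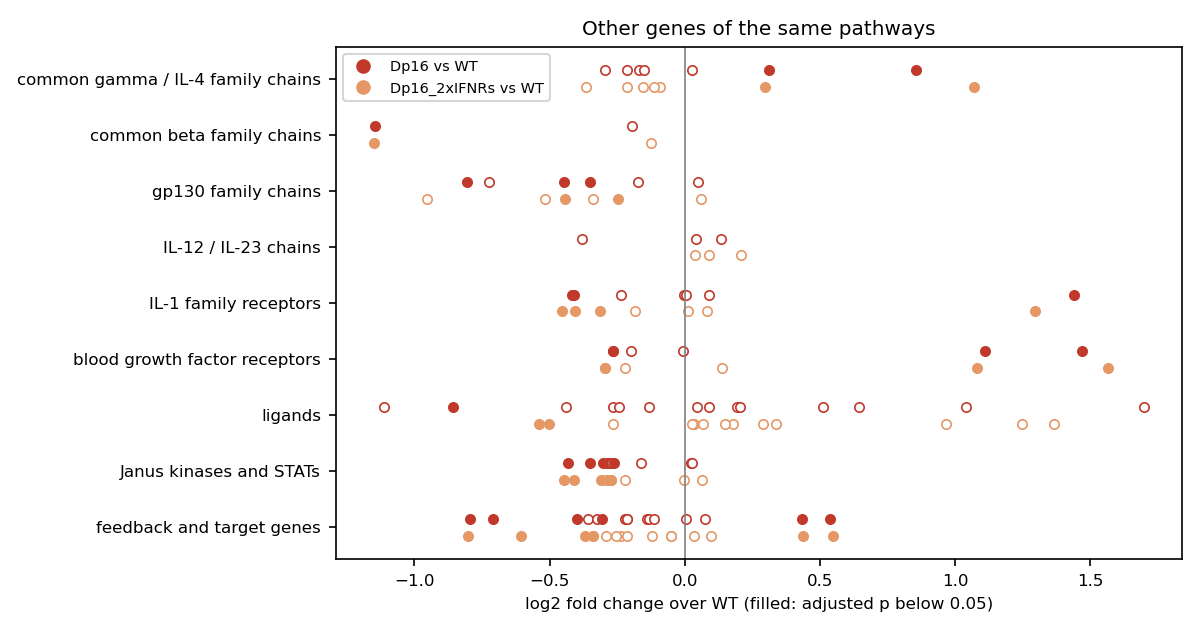
Log2 fold change over WT (horizontal axis) of every tested gene of 9 pathway lists, in Dp16 and in Dp16_2xIFNRs, 1 symbol per gene, filled where the edgeR adjusted p was below 0.05. The Janus kinase and STAT list has filled symbols on the left side only, and the growth factor receptors have them on both sides.

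Behind the receptors, 6 of 10 Janus kinase and STAT genes were lower in Dp16 (Stat6, Jak1, Stat5b, Jak3, Stat3 and Tyk2) and 7 in Dp16_2xIFNRs, with none higher and a median log2 fold change of -0.27 in Dp16, against -0.01 over all genes. Stat6, the factor that IL-4 activates through Il4ra, had medians of 150 CPM in Dp16, 157 CPM in Dp16_2xIFNRs and 204 CPM in WT (log2 fold changes of -0.43 ± 0.09, adjusted p = 0.00105, and -0.44 ± 0.09, adjusted p = 0.000779). Jak1, the kinase bound to the gp130 and IL-4 receptor chains, was at -0.35 ± 0.08 in Dp16 (adjusted p = 0.00180), and Stat5b at -0.26 ± 0.07 (adjusted p = 0.00606). 

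Of 16 feedback and target genes of these pathways, 2 were higher and 4 lower in both genotypes. The lower ones in Dp16 included Fcer2a, the low-affinity IgE receptor that IL-4 induces in B cells, with 142, 174 and 251 CPM in Dp16, 151, 212 and 238 CPM in Dp16_2xIFNRs, and 233, 253 and 470 CPM in WT (log2 fold change -0.79 in Dp16, adjusted p = 0.000108). Fcer2a is also in the B cell marker list. Bcl2, a survival gene induced through the common gamma chain, was at -0.71 ± 0.11 in Dp16 (adjusted p = 0.000127) and -0.80 ± 0.11 in Dp16_2xIFNRs (adjusted p = 4.95e-05), and Ptpn6, a phosphatase that damps cytokine signals, at -0.40 ± 0.07 and -0.37 ± 0.07. The higher ones were Cish and Pim1, named after their values were seen, at 0.54 and 0.43 in Dp16 (adjusted p = 0.00462 and 0.00199). The Dp16 count of lower genes in this list was 7 with upper quartile scaling and 8 in the RPKM fit.

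The sample descriptions hold a number code whose meaning is not given, and 7 of the 18 libraries have a code of their own and drop out of the comparison when the code is a block. Dp16 and WT libraries shared a code only for Dp16 replicate 2 and WT replicate 4, both Gm42418-rich. Other Dp16 and WT libraries were linked there only through Dp16_2xIFNRs libraries. Sex did not vary within a shared code and was not a term, so the block is a weak check of the Dp16 calls. In that fit the Dp16 calls of Il4ra, Il6ra, Il6st and Il1r2 remained, and those of Il21r (-0.29, adjusted p = 0.127) and Il2rb (-0.19, adjusted p = 0.436) were lost. Lost with them in Dp16 were Il13ra2 (adjusted p = 0.166), Il9r (0.341), Lifr (0.191), Il27ra (0.214), Sigirr (0.371), Il18r1 (0.783), Clcf1 (0.0715), Stat5b (0.0953) and Cish (0.0678), all with the direction kept. The calls of Il5ra, Cntfr, Il1rl1, Epor, Flt3, Stat6, Jak1, Fcer2a, Bcl2 and Ptpn6 remained, and 2 of the Janus kinase and STAT genes were then called lower in Dp16.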

How the data were processed

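The 10 receptor genes and all gene lists were chosen with earlier results of these data known. Per the labels, RNA was extracted with TRIzol and strand-specific poly(A) libraries were read as pairs. The deposited counts are the authors' raw counts per gene; the submitters' processing notes name HISAT2 2.1.0, HTSeq 0.6.1 and GRCm38, and the strand setting is not given in the sources used here. RPKM values, also deposited by the authors, relate those counts to library total and gene length. Gene positions are GENCODE vM21 on GRCm38.

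The test was edgeR 4.0.16's quasi-likelihood F-test (R 4.3.3, robust, TMM, filterByExpr), fitted once to the 18 libraries with genotype and sex as terms, and calls used a Benjamini-Hochberg adjusted p below 0.05 over 18634 genes. Errors of log2 fold changes, computed from the deposited counts, are standard errors derived from the fold change and its F statistic. The 95% intervals reach 1.96 standard errors to each side. That is the normal multiplier, so they are slightly narrower than the F-test itself would give. A simulation recovered 89.8% of changes of 1 on the log2 scale and 24.7% of changes of 0.5. It gave every gene the same dispersion and changed far fewer genes than were called here. Its shares therefore do not say how often such changes would be found among the receptor genes. Overlapping genes took at most 0.79% of a receptor gene's counts. Chain ratios used two-sided exact permutation tests. From each pathway list the 3 genes with the smallest p in Dp16 were named (1 is not reported here), and for each receptor the 3 genes most like it (mean log2 CPM above 3). Alternatives were other scalings, filters and terms, DESeq2 1.42.0, limma 3.58.1 (voom, and log2 RPKM with 0.1 added), and leaving out libraries. Nothing says whether sample numbers pair animals: same-numbered libraries of different genotypes had a mean residual correlation of 0.02 over 18 pairs. Pairs of libraries within a genotype differed far beyond counting noise (chi-square per degree of freedom of at least 35.1), so all 18 were kept. Animals are taken as separate, as the labels number them.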

Additional observations from a re-analysis of the deposited data

How the results depend on the processing

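Il4ra, Il6ra and Il1r2 in Dp16 against WT, and all 6 genes called in Dp16_2xIFNRs against WT, kept their direction and stayed past the threshold in 32 of 32 alternatives. In Dp16 the Il2rb call was lost in 12 of 32, Il21r in 3 and Il6st in 1. No receptor gene was called in Dp16_2xIFNRs against Dp16 in any of them, and the chain ratios gave 3 tests past the threshold in every alternative. With the description code of the labels as a block, Dp16 against WT had 1692 genes higher, 835 lower and 3 of the receptor genes lower, and Dp16_2xIFNRs against Dp16 had 0 genes lower. In that fit Dp16 and WT shared a code only for Dp16 replicate 2 and WT replicate 4. Without the Gm42418-rich libraries, 2 receptor genes were lower in Dp16, and 1734 genes were lower in Dp16_2xIFNRs. Limma-trend on RPKM gave 3924 genes lower in Dp16. The cause was not tested. The replicate block, with numbers not shown to pair animals, gave 3008 genes higher and 2526 lower in Dp16, 3090 and 2706 in Dp16_2xIFNRs, and 4 receptor genes lower in Dp16, Il2rb being lost (adjusted p = 0.0549); it changed no other call of the 10. Leaving out each library in turn gave 2720 to 3211 genes higher and 2046 to 2570 lower in Dp16, 2799 to 3323 and 2139 to 2792 in Dp16_2xIFNRs, 3 to 4 lower in Dp16_2xIFNRs against Dp16, and 3 to 5 receptor genes lower in Dp16. Il1r2 had the fewest counts of the 10 genes, 99 to 727 per library.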
